A study of Mus musculus with 12 samples.

Results

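The Notch pathway is described here through 10 of its transcripts in fetal mouse cortical cells cultured with or without the thyroid hormone triiodothyronine (T3). The genes were taken by name: the receptors Notch1, Notch2 and Notch3, the ligands Dll1 and Jag1, the receptor-modifying enzyme Lfng, the transcription factors Hes1, Hes5 and Hey1, and the feedback inhibitor Nrarp. All 10 were among the 14801 genes of the deposited table, and all 10 passed the filter on low values that left 13663 genes for testing. The libraries came from wild type mice: cells of the cerebral cortex were taken from fetuses on gestational day 17.5, grown for 9 days, and kept for 24 h without the B27 supplement. One culture of each of 6 fetuses then received 10 nM T3 for 24 h, and a second culture of the same fetus was kept in parallel without it, giving 6 libraries per group. B27 had thus been withdrawn from both groups, and no gene was altered in either. The labels give neither the strain nor the sex of the fetuses.

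Notch receptors are membrane proteins that are activated by ligands of the Delta and Jagged families on a neighbouring cell. Binding lets a metalloprotease and then gamma-secretase cut the receptor, and the freed intracellular domain joins the DNA-binding protein Rbpj and Mastermind coactivators in the nucleus. Genes of the Hes and Hey families are switched on in this way and encode repressors, which in the developing cortex hold back the proneural genes that drive progenitors towards neurons. The pathway is known for maintaining radial glia and for its part in the formation of astrocytes. Nrarp is itself a Notch target and encodes an ankyrin repeat protein that limits signalling by destabilising the intracellular domain.

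The upstream sequences of 3 members are shown here: Nrarp, which had the largest change with T3, and Hes5 and Lfng, which did not pass the test. Of the 10 genes, 8 matched the RefSeq table of promoters (250 bases before to 50 after the start, GRCm38.p6). Hes1 and Hey1 had no entry. The 3 windows below read 5′ to 3′ along the plus strand, which is the strand of each gene. Capitals mark TGGGAA, the core of the Rbpj site, and CACGNG, the E-box form that Hes and Hey proteins bind, each searched on both strands.
Nrarp, chr2:25180508-25180807: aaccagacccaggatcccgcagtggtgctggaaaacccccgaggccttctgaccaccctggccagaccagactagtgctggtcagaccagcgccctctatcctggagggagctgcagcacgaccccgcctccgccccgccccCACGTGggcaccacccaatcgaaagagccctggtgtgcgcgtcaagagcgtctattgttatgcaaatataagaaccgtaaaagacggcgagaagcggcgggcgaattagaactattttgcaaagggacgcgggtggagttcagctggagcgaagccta
Hes5, chr4:154960673-154960972: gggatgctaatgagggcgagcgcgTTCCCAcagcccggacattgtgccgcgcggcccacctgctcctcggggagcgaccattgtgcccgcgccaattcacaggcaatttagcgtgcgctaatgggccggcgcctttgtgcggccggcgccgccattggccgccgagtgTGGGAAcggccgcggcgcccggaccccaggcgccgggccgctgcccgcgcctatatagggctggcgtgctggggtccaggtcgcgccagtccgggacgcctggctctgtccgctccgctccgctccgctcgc
Lfng, chr5:140607091-140607390: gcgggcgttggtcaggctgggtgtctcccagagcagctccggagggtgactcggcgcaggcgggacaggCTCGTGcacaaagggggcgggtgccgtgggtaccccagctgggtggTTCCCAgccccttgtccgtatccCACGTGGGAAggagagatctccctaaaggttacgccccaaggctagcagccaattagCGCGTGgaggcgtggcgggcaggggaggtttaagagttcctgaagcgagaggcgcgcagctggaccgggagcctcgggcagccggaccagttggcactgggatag
In the Nrarp window TGGGAA was not matched, and CACGNG was matched at 1 position, as CACGTG, whose first base lies 108 bases before the start. The Hes5 window held TGGGAA at 2 positions, 226 bases before the start as the reverse complement and 82 bases before it on the plus strand, and no CACGNG. The Lfng window held 2 matches of TGGGAA, at 135 and 108 bases before the start, and 3 of CACGNG. The match of TGGGAA at 108 bases in Lfng shares bases with the CACGTG before it. Hes5 and Lfng were the only members with TGGGAA in their windows. The windows of Dll1, Jag1, Notch1, Notch2 and Notch3, which did not pass the test either, held none. Nrarp was the only member that rose and had a window, since Hey1 had no entry. The windows thus cannot contrast genes that rose with genes that did not. Among 32851 promoter windows of the same length, 25.6% held TGGGAA and 27.5% held CACGNG. The N-box form CACNAG was also searched and is not marked as such above. It had 2 matches in the Nrarp window, 1 in that of Lfng and 0 in that of Hes5, and occurred in 42.5% of all windows. The half-site of the thyroid hormone receptor, AGGTCA, occurred in 16.3% of all windows and in none of the 3 shown. A Dll1 window that is not shown held AGGTCA. The direct repeat of that half-site with a spacer of 4 bases, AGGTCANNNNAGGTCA, occurred in 5 of the 32851 windows and was not matched in any of these 3.

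T3 changed 2 of the 10 transcripts. Nrarp rose 1.79-fold and Hey1 1.27-fold, none of the 10 fell, and the receptors, ligands, Lfng, Hes1 and Hes5 did not pass the test. Across all genes tested, 3.37% were called higher and 2.14% lower (limma, adjusted p under 0.05). At an unadjusted p under 0.05 limma had 5 of the 10 higher and 0 lower, beside 9.68% of all genes tested higher and 7.79% lower. With adjustment edgeR and DESeq2 each called 2 higher and 0 lower. The log2 change was above 0 for 9 of the 10 genes, with a median of 0.20, beside a median of 0.0031 over all genes tested. The members were chosen with earlier results of these data known, so these comparisons with all genes are not independent support. Of 42 other Notch pathway genes tested, 23 had a change above 0 and 19 one below, with a median of 0.014. Values are TMM-normalized CPM, in which each gene's reads are scaled to the effective size of its library, and each ± is an SD over 6 cultures. Changes are on the scale log2(CPM + 0.5), which understates the change of low genes.

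**Figure D1:**
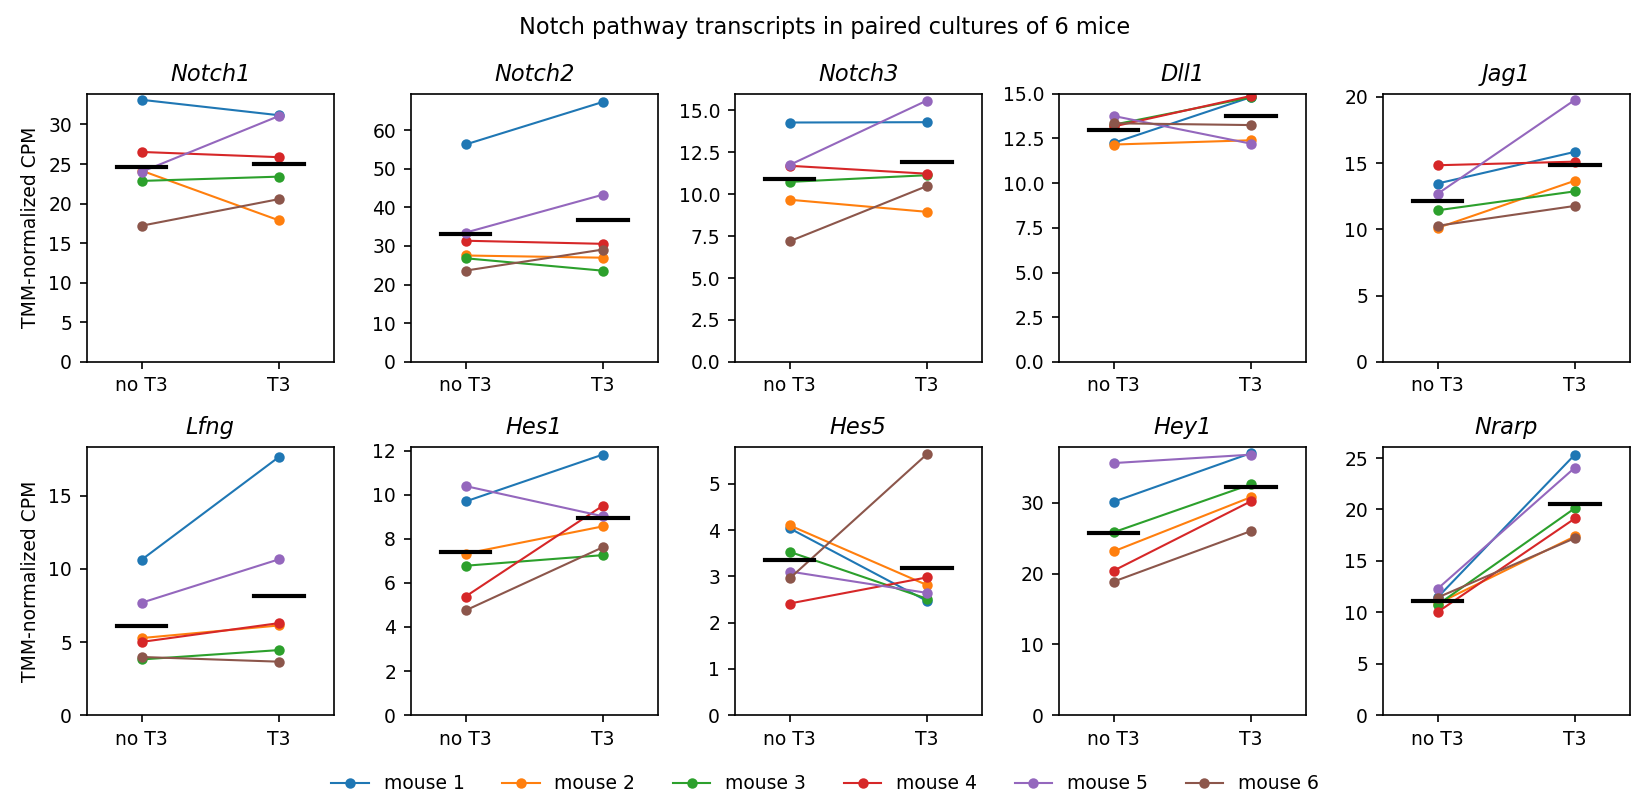
Levels of the 10 Notch pathway transcripts in TMM-normalized CPM (vertical axes, each from 0) without and with T3, with 1 coloured line for each of 6 mice and black bars for the group means. The Nrarp lines all climb from 10.0 to 12.3 CPM without T3 to 17.2 to 25.3 CPM with T3, whereas the groups overlap for the other 9 genes.

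Depth and purity bear on these values. The libraries held 5272092 to 8136928 reads without T3 and 7460586 to 10837895 with T3, and in each of the 6 mice the culture with T3 had been sequenced more deeply, at 1.03 to 1.67 times the reads of its partner. A member had between 13 and 518 reads in a library. Transcripts of heart muscle (the sum of Myh7, Myh6 and Ttn) stood at 1213 CPM in the culture of mouse 4 without T3 and at 3.07 to 6.89 in the other 11, and 6 markers of mural cells and fibroblasts summed to 373.1 CPM there and to 42.1 to 155.3 elsewhere. Values without mouse 4 are therefore given for the 2 genes that rose. The summed level of 8 neuron markers was 4880 to 6706 CPM and that of 8 astrocyte markers 812.8 to 3205 CPM, so neurons and astrocytes were both represented. Of 7 endothelial markers 3 were measured, with sums of 5.86 to 32.1 CPM. In such bulk cultures fewer cells of a type and less RNA per cell cannot be told apart.

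Nrarp (ENSMUSG00000078202), on the plus strand of chromosome 2 from 25180758 to 25183339 (GRCm38), was the member with the largest change. Its level without T3 was 11.4, 10.8, 10.7, 10.0, 12.3 and 11.4 CPM in mice 1 to 6. With T3 it was 25.3, 17.4, 20.1, 19.1, 24.1 and 17.2 CPM in the same order. The cultures without T3 lay close together and every culture with T3 was above all of them. Nrarp was the only member whose groups did not overlap, and 1.05% of all genes tested had groups that did not overlap with T3 higher. The mean went from 11.1 ± 0.773 to 20.5 ± 3.42 CPM (n = 6), a log2 change of 0.84 (SE 0.092, 95% interval 0.65 to 1.036, limma adjusted p = 4.99e-06). The rise ranged from 0.57 in mouse 6 to 1.11 in mouse 1, and without mouse 4 the log2 change was 0.83 (limma adjusted p = 5.13e-05). An antisense transcript, Gm38287, is annotated over 79.4% of the Nrarp exons. The library kit does not mark strand, so reads of the 2 genes could not be told apart. Gm38287 itself was not among the genes of the deposited table and could not be analysed.

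Hey1 (ENSMUSG00000040289), a bHLH repressor gene on the minus strand of chromosome 3 from 8663359 to 8667256, rose by less than Nrarp. Without T3 the level of Hey1 varied more between mice, at 30.2, 23.1, 25.8, 20.4, 35.6 and 18.9 CPM in mice 1 to 6. With T3 it was 37.0, 30.8, 32.6, 30.2, 36.8 and 26.0 CPM. Hey1 was higher with T3 in each of the 6 mice, while the groups overlapped: without T3, mouse 5 was above 4 of the T3 cultures and mouse 1 above that of mouse 6. The mean went from 25.7 ± 6.32 to 32.2 ± 4.21 CPM (n = 6), a log2 change of 0.35 (SE 0.075, 95% interval 0.19 to 0.50, limma adjusted p = 0.00703). The smallest rise was 0.047, in mouse 5, and the largest 0.55, in mouse 4. Without mouse 4 the log2 change was 0.31 (limma adjusted p = 0.0378). The call needed the pairing of cultures by mouse, and a fit with no replicate block lost it (limma adjusted p = 0.356). The summed level of the 8 astrocyte markers was also higher with T3 in 6 of 6 mice, by 1.07 to 1.51 times, and its part in the rise of Hey1 was not tested.

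Hes1 (ENSMUSG00000022528; chromosome 16, 30064384 to 30067796), a Notch effector of neural progenitors, did not pass the test. Its level without T3 was 9.69, 7.32, 6.78, 5.38, 10.4 and 4.75 CPM in mice 1 to 6, and with T3 it was 11.8, 8.56, 7.26, 9.50, 9.02 and 7.62 CPM. It was higher with T3 in 5 of 6 mice and lower in mouse 5, and the groups overlapped. The log2 change was 0.30 (SE 0.13, 95% interval 0.029 to 0.56, limma adjusted p = 0.225). The interval thus reached the size of the Hey1 change.

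Hes5 (ENSMUSG00000048001; chromosome 4, 154960923 to 154962371), another Notch effector of neural progenitors, stood at 2.41 to 4.10 CPM without T3 (median 3.32). With T3 it was 2.47, 2.81, 2.52, 2.98, 2.64 and 5.64 CPM in mice 1 to 6. It was lower with T3 in 4 of 6 mice and higher in mice 4 and 6, with the widest spread of changes among the 10 genes, from -0.61 in mouse 1 to 0.83 in mouse 6. The log2 change was -0.10 (SE 0.18, 95% interval -0.49 to 0.28, limma adjusted p = 0.84). Single mice decided its size: it was -0.0010 without mouse 1 and -0.29 without mouse 6. Hes5 had 13 to 57 reads per library, the lowest counts of the 10 genes, and Gm20421, an antisense transcript, is annotated over 31.8% of its exons. Gm20421 was not among the genes of the deposited table.

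The responses of the 4 target genes were compared with one another within mice, over 6 pairs of genes. The log2 change of Nrarp exceeded that of Hey1 by 0.50 ± 0.31 (SD, n = 6), in 6 of 6 mice (exact sign-flip permutation test, two-sided, p = 0.03125, the smallest this design can give; adjusted p = 0.125). Nrarp exceeded Hes1 by 0.55 ± 0.46 and Hes5 by 0.95 ± 0.69, each in 5 of 6 mice (exact sign-flip permutation test, p = 0.0625 and adjusted p = 0.125 for both). Hey1 and Hes1 differed by 0.050 ± 0.21 (exact permutation test, p = 0.469). With 6 mice and 6 pairs, no difference between targets passed after adjustment. These pairs were chosen with the changes known.

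**Figure D2:**
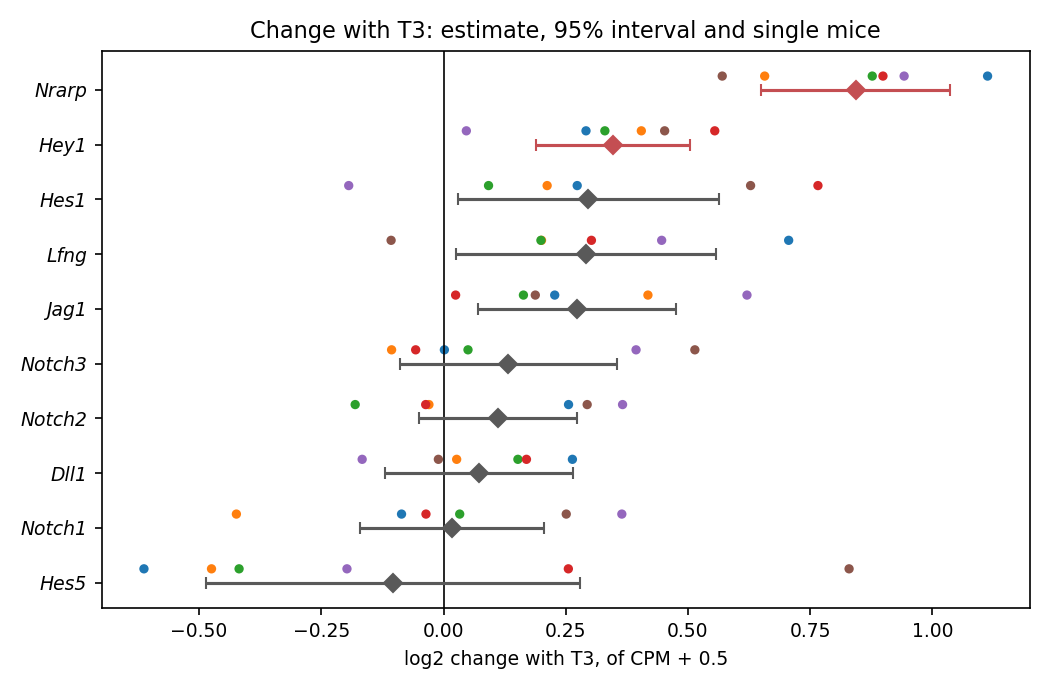
Change with T3 on the log2(CPM + 0.5) scale (horizontal axis) for each member, with diamonds for the limma estimate, bars for its unadjusted 95% interval and dots for the 6 mice. Red marks the 2 genes that passed the test, Nrarp at 0.84 and Hey1 at 0.35, and the dots of Hes5 spread from -0.61 to 0.83.

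Among the ligands, Jag1 came closest to the threshold. Jag1 (ENSMUSG00000027276; chromosome 2, 137081456 to 137116644), a ligand that is also made by glia and vessel cells, stood at 13.5, 10.1, 11.4, 14.8, 12.7 and 10.3 CPM without T3 in mice 1 to 6. With T3 it stood at 15.9, 13.7, 12.9, 15.1, 19.8 and 11.8 CPM. It was higher with T3 in 6 of 6 mice, although by only 0.025 in mouse 4, and the groups overlapped. The log2 change was 0.27 (SE 0.097, 95% interval 0.071 to 0.48, limma adjusted p = 0.12). Nrarp, Hey1 and Jag1 were the 3 members with a higher value in 6 of 6 mice, as were 5.79% of all genes tested.

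Dll1 (ENSMUSG00000014773; chromosome 17, 15367354 to 15376872), the Delta ligand of newborn neurons and committed progenitors, was the steadiest member. It lay between 12.2 and 13.8 CPM without T3 (median 13.2) and between 12.2 and 14.9 with T3 (median 14.0). The lower ends of the 2 ranges almost coincided, while the median with T3 lay above the highest culture without it. The log2 change was 0.073 (SE 0.092, 95% interval -0.12 to 0.27, limma adjusted p = 0.759). The lincRNA A930024N18Rik overlaps 20.6% of the Dll1 exons on the other strand and stood at 1.67 to 4.99 CPM without T3 and 2.18 to 3.46 CPM with T3.

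Lfng (ENSMUSG00000029570; chromosome 5, 140607320 to 140615545) encodes lunatic fringe, a glycosyltransferase that alters which ligands a receptor answers to. Its level without T3 was 10.6, 5.27, 3.81, 5.01, 7.69 and 3.98 CPM in mice 1 to 6, and with T3 it was 17.7, 6.14, 4.45, 6.30, 10.7 and 3.66 CPM. Mouse 1 was the highest in both groups, and the level was higher with T3 in 5 of 6 mice. The log2 change was 0.29 (SE 0.13, 95% interval 0.025 to 0.56, limma adjusted p = 0.235).

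None of the 3 receptors passed the test. Notch1 (ENSMUSG00000026923; chromosome 2, 26457903 to 26516663) lay between 17.2 and 33.1 CPM without T3 and between 17.9 and 31.2 with T3, and 3 mice were higher and 3 lower with T3. Its log2 change of 0.017 (SE 0.090) had an interval of -0.17 to 0.21 (limma adjusted p = 0.956). Notch2 (ENSMUSG00000027878; chromosome 3, 98013527 to 98150361) lay between 23.6 and 56.3 CPM without T3 and between 23.6 and 67.3 with T3, with mouse 1 far above the rest in both groups. Its log2 change was 0.11 (SE 0.078, 95% interval -0.051 to 0.27, limma adjusted p = 0.518). Notch3 (ENSMUSG00000038146; chromosome 17, 32120820 to 32166852), a receptor known from mural cells and also present in progenitors, lay between 7.19 and 14.3 CPM without T3 and between 8.95 and 15.6 with T3. Its log2 change was 0.13 (SE 0.11, 95% interval -0.090 to 0.36, limma adjusted p = 0.591). In the culture of mouse 4 without T3, where mural and fibroblast transcripts were high, Notch3 stood at 11.7 CPM, within the range of the other cultures.

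Levels of different genes were compared per kilobase of annotated exon, over the 6 cultures without T3. Those of Nrarp and Hes5 depend on whether reads shared with their antisense transcripts were counted, which is not given in the sources used here. Hey1 was the highest at 7.86 ± 1.93 CPM per kilobase, followed by Nrarp at 4.31 ± 0.299, Hes1 at 3.63 ± 1.11, Dll1 at 3.08 ± 0.153 and Notch2 at 3.08 ± 1.097. Hes5 stood at 2.46 ± 0.483, Lfng at 2.42 ± 1.051, Jag1 at 2.08 ± 0.321, Notch1 at 1.73 ± 0.364 and Notch3 at 1.35 ± 0.293 CPM per kilobase. Hey1 exceeded Nrarp, and Notch1 exceeded Notch3, in each of the 6 mice. The other neighbours changed places in at least 1 mouse, and Hes5 and Lfng as well as Lfng and Jag1 were each split 3 to 3. With T3 Nrarp reached 7.95 ± 1.33 CPM per kilobase and Hey1 9.88 ± 1.29. The order depends on the length used: per kilobase of the longest coding transcript Hes1 (5.031) stood above Nrarp (4.31), and Notch1 (2.60) above Jag1 (2.16).

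Members differed between mice as well as with T3. Averaged over both cultures on the log2 scale, the highest mouse exceeded the lowest 3.29-fold for Lfng, 2.42-fold for Notch2, 1.72-fold for Hes1, 1.69-fold for Notch1, 1.62-fold for Hey1, 1.24-fold for Nrarp and 1.14-fold for Dll1. The mean level of the summed astrocyte markers (Gfap, Aqp4, Aldh1l1, Slc1a2, Slc1a3, Gja1, S100b and Aldoc) was 2964 CPM in mouse 1, 2326 in mouse 5, 1597 in mouse 2, 1469 in mouse 3, 1459 in mouse 4 and 1000.0 in mouse 6. Mouse 1 or mouse 5 had the highest mean level of 8 of the 10 members, the exceptions being Dll1 and Hes5. The summed radial glia markers were also highest in mouse 1 and lowest in mouse 6 without T3 (1452 and 804.9 CPM), and the summed neuron markers were lowest in mouse 1 and highest in mouse 6 (5261 and 6706 CPM).

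**Figure D3:**
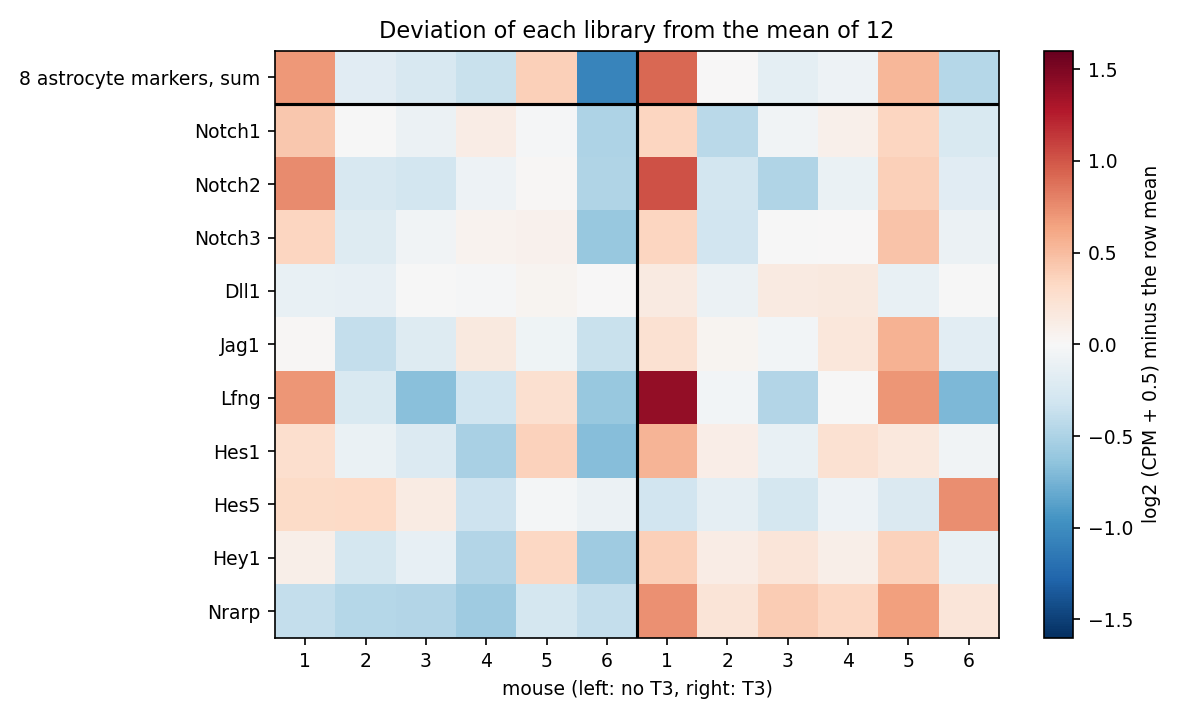
Deviation of each library from the mean of all 12 on the log2 scale, for the summed astrocyte markers (top row) and the 10 members, with the 6 mice without T3 on the left and the same mice with T3 on the right. Mice 1 and 5 are above the mean and mouse 6 without T3 below it for the markers and for Lfng and Hes1, whereas Nrarp divides the panel by treatment.

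Across the 6 mice the relation to the astrocyte markers was computed for each of the 10 members. Hes1 followed them most closely (Pearson r = 0.991, exact permutation p = 0.00278, adjusted p = 0.0208; Spearman rho = 0.943, exact permutation p = 0.0167, adjusted p = 0.0833; n = 6). Lfng had r = 0.957 (exact permutation p = 0.00417, adjusted p = 0.0208) and rho = 0.943 (adjusted p = 0.0833), and Hey1 had r = 0.904 (exact permutation p = 0.0181, adjusted p = 0.037) and rho = 0.886 (adjusted p = 0.111). Without mice 1 and 6, the 2 farthest from the median, r over the other 4 mice was 0.982 for Hes1, 0.917 for Lfng and 0.907 for Hey1. Mice 2, 3 and 4 lie close together on the markers, so these values rest on mouse 5 and cannot show whether the relation holds within the 4. The 3 receptors had r of 0.892 (Notch1), 0.882 (Notch2) and 0.900 (Notch3), each with an exact permutation adjusted p of 0.037, and rho of 0.771, 0.714 and 0.771. Without mice 1 and 6 their r was 0.512, 0.849 and 0.698. Nrarp had r = 0.853 (exact permutation p = 0.0486, adjusted p = 0.0694) and Jag1 r = 0.729 (exact permutation p = 0.114, adjusted p = 0.142), with rho of 0.543 and 0.486. Dll1 (r = -0.12, rho = -0.257) and Hes5 (r = -0.485, rho = -0.143) had values below 0 (exact permutation adjusted p = 0.833 and 0.37 for r). No rank correlation passed after adjustment over the 10 relations, and the points share the libraries from which both measures come. An r of at least 0.85, a limit chosen after the values were seen, was reached by 7 of the 10 members and by 9.25% of all genes tested. The relation to radial glia and neuron markers was not tested.

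**Figure D4:**
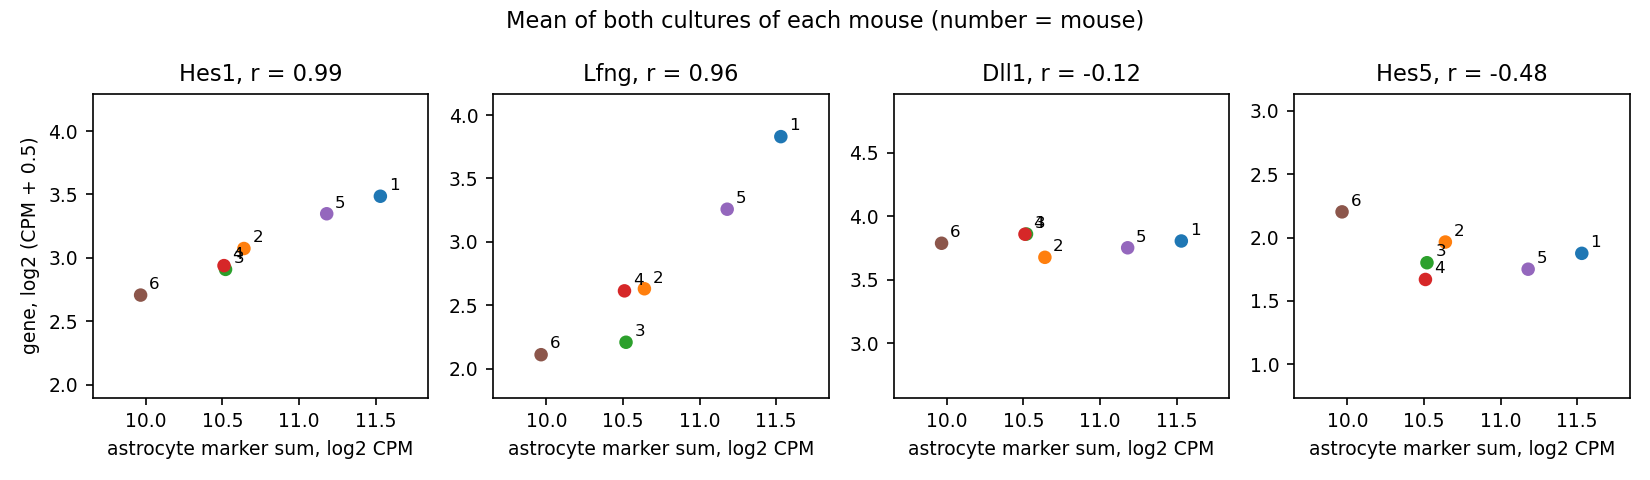
Level of 4 members (vertical axis, log2 of CPM + 0.5, all panels spanning the same range) against the summed astrocyte markers (horizontal axis, log2 CPM), with 1 numbered point per mouse, the mean of its 2 cultures. Hes1 (r = 0.991) and Lfng (r = 0.957) climb with the markers from mouse 6 to mouse 1, whereas Dll1 and Hes5 do not.

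Of 58 genes listed for its parts 55 were measured and 52 tested, the 10 members among them. Of the 42 tested genes that are not members, none rose and 1 fell by limma, edgeR and DESeq2 alike, with a median log2 change of 0.014. Over all genes tested limma called 3.37% higher and 2.14% lower, so 1 of 42 lower is near the general share. At an unadjusted p under 0.05 limma had 3 of these 42 higher and 5 lower, beside the 9.68% and 7.79% of all genes tested. Tle1, which encodes a Groucho-type corepressor recruited by Hes proteins, fell from 75.9 ± 5.45 to 62.3 ± 7.40 CPM (n = 6). The log2 change was -0.29 (SE 0.067, limma adjusted p = 0.0112), and the level was lower in 6 of 6 mice, as it was for 4.98% of all genes tested. Its call was lost without mouse 6 (limma adjusted p = 0.0569) and without the mouse as a block (limma adjusted p = 0.0983). The related gene Tle2 had a log2 change of -0.33 (limma adjusted p = 0.187), Tle3 one of 0.033 and Tle4 one of 0.071.

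The steps from ligand to nucleus held no other call. Notch4, the other receptor gene tested, stood at 1.80 CPM without and 1.26 with T3, on 7 to 18 reads per library. Its log2 change was -0.35 (limma adjusted p = 0.381). The level of Notch4 was lower with T3 in 6 of 6 mice, as were 4.98% of all genes tested. Of the other 2 tested ligand genes, Jag2 stood at 20.7 CPM without and 22.2 with T3 and Dll3 at 4.82 and 4.78. Dner, a neuronal non-canonical ligand, was the most abundant gene of the Notch pathway lists by CPM, at 653.1 ± 32.0 without and 626.6 ± 44.9 with T3. None of 4 ligand endocytosis genes, including the ubiquitin ligase gene Mib1 (190.6 and 191.2 CPM), passed. None of 9 genes for the proteases passed, with Adam10, which makes the first cut, at a log2 change of 0.13 (limma adjusted p = 0.16). Rbpj had a log2 change of -0.20 (limma adjusted p = 0.214) and the coactivator gene Maml3 one of 0.30 (limma adjusted p = 0.185). Among 9 genes for inhibitors and other regulators of the pathway, Nrarp alone passed, with Numb at -0.070, Numbl at 0.10 and Dtx4 at -0.042.

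**Figure D5:**
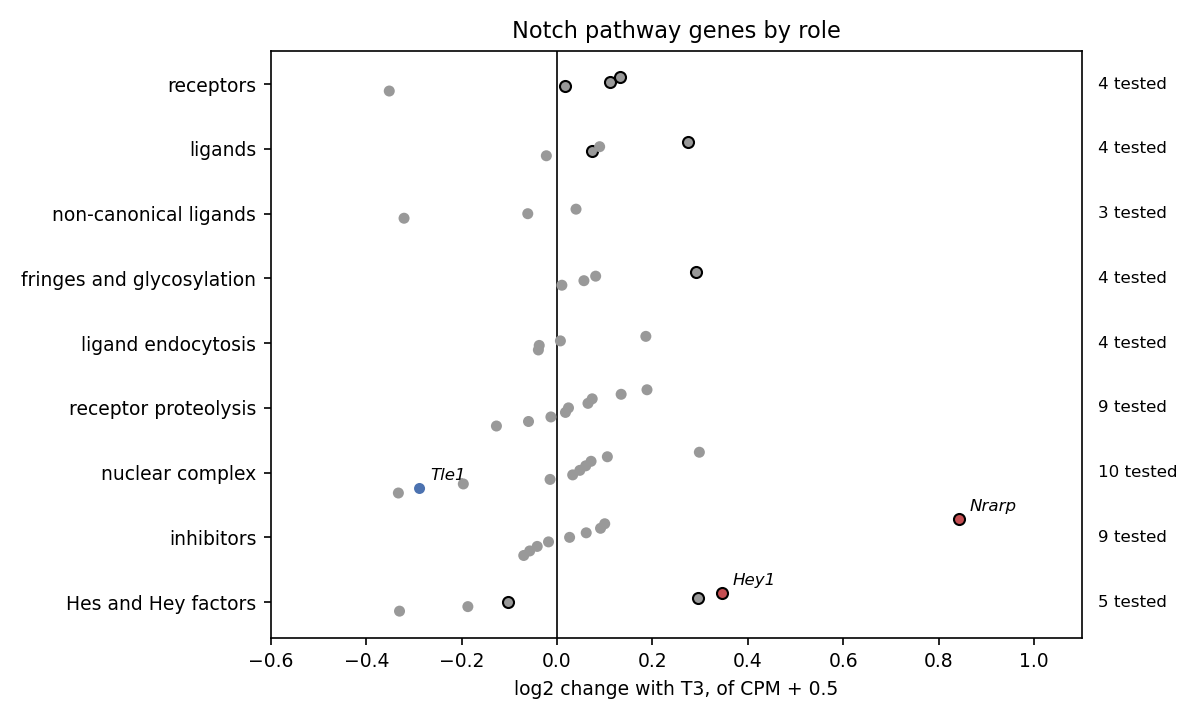
Change with T3 on the log2(CPM + 0.5) scale (horizontal axis) of the 52 tested Notch pathway genes, grouped by role, with red for genes that rose, blue for the gene that fell, grey for the rest and a black rim for the members. Nrarp (0.84), Hey1 (0.35) and Tle1 (-0.29) are coloured.

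In the Hes and Hey families 5 genes were tested and Hey1 alone passed. Hes6, which encodes a factor that opposes Hes1 and favours neuronal differentiation, stood at 26.5 ± 3.44 CPM without and 23.2 ± 3.26 with T3 (log2 change -0.19, limma adjusted p = 0.262). Hey2, known from heart and vessels, stood at 13.9 CPM in the culture of mouse 4 without T3 and at 1.78 to 4.85 in the other 11 (log2 change -0.33, limma adjusted p = 0.522; -0.030 without mouse 4). Among the proneural genes, Neurod1 and Neurog2 did not pass. Neurod1 stood at 23.2 CPM without and 21.8 with T3. Neurog2 stood at 1.61 and 1.13 CPM (log2 change -0.38, limma adjusted p = 0.351), on 7 to 15 reads per library. It was lower in 6 of 6 mice, as were 4.98% of all genes tested.

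Markers of cell types were tested in the same fit. Of 7 tested astrocyte markers 4 rose and none fell: Gfap (log2 change 0.30), Aqp4 (0.29), Aldh1l1 (0.31) and Slc1a2 (0.43). With the library total alone as scaling, Gfap and Aqp4 did not pass. Of 7 radial glia markers 1 rose, Prom1 (0.29). Of 8 markers of the oligodendrocyte lineage 2 rose, Olig1 (0.41) and Olig2 (0.24), and of 8 neuron markers 1 rose, Rbfox3 (0.27), with 4 of the 8 changes above 0 and 4 below. The summed neuron markers were higher with T3 in 1 of 6 mice. Of 6 mural and fibroblast markers 1 fell, the proteoglycan gene Dcn (-0.47). Calls were lost when 1 mouse was left out for Gfap (mouse 3, 5 or 6), Aqp4 (1, 3, 4 or 6), Aldh1l1 (4, 5 or 6), Prom1 (1, 2, 3, 4 or 6), Rbfox3 (3 or 4), Olig2 (3, 4, 5 or 6) and Dcn (3), with limma adjusted p up to 0.19, for Prom1. Those of Slc1a2 and Olig1 held without any one mouse. With DESeq2 Prom1 and Olig2 did not pass (adjusted p = 0.133 and 0.106), and none of these 9 markers passed with no replicate block (limma adjusted p from 0.218 to 0.943). The part of these shifts in the changes of Nrarp and Hey1 was not tested.

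The genes with the pattern most like 3 of the targets were found by the SD, over the 12 libraries, of the log2 ratio of each of 13265 genes to the target. For Nrarp, whose own log2 level had an SD of 0.47, they were Npnt, a matrix protein gene (SD of the ratio 0.13), the claudin gene Cldn12 (0.16) and the peroxisomal transporter gene Abcd2 (0.17). Their log2 changes with T3 were 0.79, 0.79 and 0.67. Likeness over all 12 libraries includes the change with T3, so a change like that of the target follows from how these genes were chosen. For Hey1, with an SD of 0.32, they were Sat1 (0.13), Ttyh1 (0.13) and F3 (0.14), with log2 changes of 0.33, 0.19 and 0.43. For Hes5, also with an SD of 0.32, they were Krt77 (0.19), the interneuron transcription factor gene Dlx2 (0.21) and Cxcl10 (0.22). None of these 3 passed the test. Hes5 had only 13 to 57 reads per library, so counting error is part of its SD. The part of that error in this likeness was not tested.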

How the data were processed

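RNA was sequenced as single reads of 75 bases from 12 libraries. The submitters' processing notes name CASAVA, FastQC, Bowtie, TopHat, HTSeq, edgeR and GRCm38 with no versions or settings. The authors deposited a normalized signal, read here as TMM-normalized CPM, for genes at 1.002 CPM or more in at least 2 libraries. Each value was a whole multiple of what 1 read was worth (100% within 0.01 reads), which gave back the reads. A count of 0 allows up to 3 reads, or 0.273 to 0.557 CPM, for counting error only.

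Genes were tested with limma (3.58.1, R 4.3.3) after adding 0.5 and taking log2, using a trended, robust variance prior and a block for each mouse. Two-sided p-values were adjusted by Benjamini-Hochberg over the 13663 genes that filterByExpr (edgeR 4.0.16) kept on the recovered reads. The design text states that each fetus gave both cultures, and libraries of 1 mouse deviated together (r from 0.297 to 0.657, against a median of -0.0704 and a highest of 0.47 between different mice). Replicate libraries differed by more than sampling noise. Alternatives were a pseudocount of 0.1 or 1, no filter, other scalings, no block, edgeR and DESeq2 1.42.0 on the recovered reads, and leaving out each mouse. The fit was tested on simulated data. Coordinates and overlaps are from GENCODE M21.

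The members and lists were chosen with earlier results of these data known. Named genes are the 10 members, every other list gene past the threshold, examples from the lists, and the 3 genes most like Hes5, Hey1 and Nrarp among those whose log2 values average at least 1.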

Additional observations from a re-analysis of the deposited data

Results flagged for a closer look

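Among the 20 sets of 6 cultures examined (10 genes in 2 groups), 2 held a culture far from the other 5, where chance alone gives about 1 in 20. Notch2 stood at 56.3 CPM in mouse 1 without T3, and the next culture of that group was at 33.5. Hes5 stood at 5.64 CPM in mouse 6 with T3, and the next culture was at 2.98.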

How the results depend on the processing

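Of 140 results for the 10 members under 14 other settings, 137 kept their direction and call. The call of Hey1 was lost with no replicate block (adjusted p = 0.356), and Notch1, which never passed, had log2 changes from -0.052 to 0.11 when 1 mouse was left out, below 0 without mouse 5 or mouse 6, in place of 0.017. Nrarp passed in 14 of 14 settings, with log2 changes from 0.79 to 0.90 and adjusted p from 6.96e-08 to 0.000311, and Hey1 in 13 of 14, with log2 changes from 0.31 to 0.41 and adjusted p from 0.00296 to 0.356. Without the replicate block 125 genes were higher and 53 lower in place of 461 and 293, and 1 member was higher in place of 2. In the pathway lists 1 gene was then higher and 0 lower (limma; 2 and 1 with the block). Leaving out 1 mouse gave 304 to 526 genes higher and 155 to 328 lower, 2 members higher each time, 0 members lower, 2 to 3 pathway genes higher, the third being Neurl1a without mouse 1, and 0 to 1 lower, the 0 being without mouse 6. DESeq2 called 312 genes higher and 219 lower, and edgeR 465 and 317. No setting moved the median of all genes by over 0.1. Hes5 had 13 to 57 reads per library, the least depth of the members.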
